A study of Mus musculus with 8 samples.

Results

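The genes described here make, modify and break down the ceramides and other sphingolipids of the skin barrier. They were a named set of 32 mouse genes, chosen for their roles in acylceramide and sphingolipid metabolism, out of 49671 genes in the count table. All 32 were found by symbol, and all 32 passed the filter on low counts, which left 19099 genes in the test. The set was parted into 8 acylceramide steps that are largely restricted to stratified epithelium, 3 broadly expressed genes that acylceramide synthesis also needs, 12 genes of general sphingolipid synthesis, and 9 genes of head group exchange and turnover.

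The study measured RNA in total shaved back skin of 8-week-old mice. There were 4 libraries of the Flg genotype ko/ko and 4 of the genotype wt/wt, which are called ko and wt below. Replicate numbers follow the order of the samples within each genotype and were not given by the labels. Flg encodes profilaggrin, the filaggrin precursor made by granular keratinocytes. The labels give neither the design of the mutant allele, the strain nor the sex, and nothing in them assigns the libraries to individual animals, so p-values measure the spread between these samples, which may be technical.

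Ceramides are built in the endoplasmic reticulum by joining a fatty acid to a sphingoid base. In the epidermis some of them carry a very long omega-hydroxylated fatty acid that is esterified to linoleic acid, and these acylceramides are packed into lamellar bodies, oxidised and bound to the cornified envelope. Loss of several of the enzymes causes ichthyosis in people and a lethal barrier defect in newborn mice. The same general synthesis route also serves fat, sebaceous glands, hair follicles, nerve and muscle, all of which are present in whole skin, so a bulk value cannot tell fewer cells of a type from less RNA per cell.

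The totals were between 18483242 and 38545957 counts per library. Flg was at 26.6, 24.9, 23.45 and 22.3 CPM (counts scaled to equal library totals) in the ko libraries and at 67.6, 48.0, 55.9 and 65.4 CPM in the wt libraries, with a log2 fold change of -1.27 ± 0.12 (SE) and an edgeR adjusted p of 0.00326. Markers of the tissue were present in every library: the summed level of 12 suprabasal keratinocyte markers was 8505 to 10490 CPM in ko and 9628 to 10680 CPM in wt. Wild-type replicate 3 stood apart from the other wt libraries in fat and sebaceous gland genes. The summed level of 12 white adipocyte markers was 7007 CPM in that library, against 5331 to 7206 CPM in the ko libraries and 3843 to 4428 CPM in the other wt libraries. The summed level of 9 sebocyte markers was 1695 CPM in that library, against 924 to 1191 CPM in ko and 860 to 1121 CPM in the other wt libraries. No marker of either list was at 0. Values that rest on this library are therefore given with and without it.

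No gene of the set changed past the test. With edgeR's quasi-likelihood test and Benjamini-Hochberg adjustment over all tested genes, 0 of the 32 genes were called at an adjusted p under 0.05, where 1.41% of all tested genes were called. The smallest adjusted p in the set was 0.0949, for Cers2. At an unadjusted p under 0.05 there were 9 of the 32 genes, 3 higher and 6 lower in ko, beside 19.5% of all tested genes. DESeq2 called 2 of the 32, Cers2 and Sgms1, beside 6.16% of all tested genes. Limma voom with quality weights called 5, which were Slc27a4, Cers2, Cers4, Fa2h and Acer1, beside 13.4% of all tested genes.

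The median log2 fold change of the 32 genes was -0.0046 with 16 above and 16 below 0, and the median of all tested genes was -0.02. By role it was -0.0066 for the restricted acylceramide steps, -0.08 for the broadly expressed genes that acylceramide synthesis needs, -0.02 for general synthesis and 0.03 for head groups and turnover. The restricted and the general genes thus had medians that lay within 0.1 of 0 on the log2 scale, and neither was tested as a list. The single genes lay between -0.59 for Fa2h and 0.30 for Cers5. The quartiles of the 32 genes were -0.11 and 0.11, and those of all tested genes -0.19 and 0.14.

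**Figure D1:**
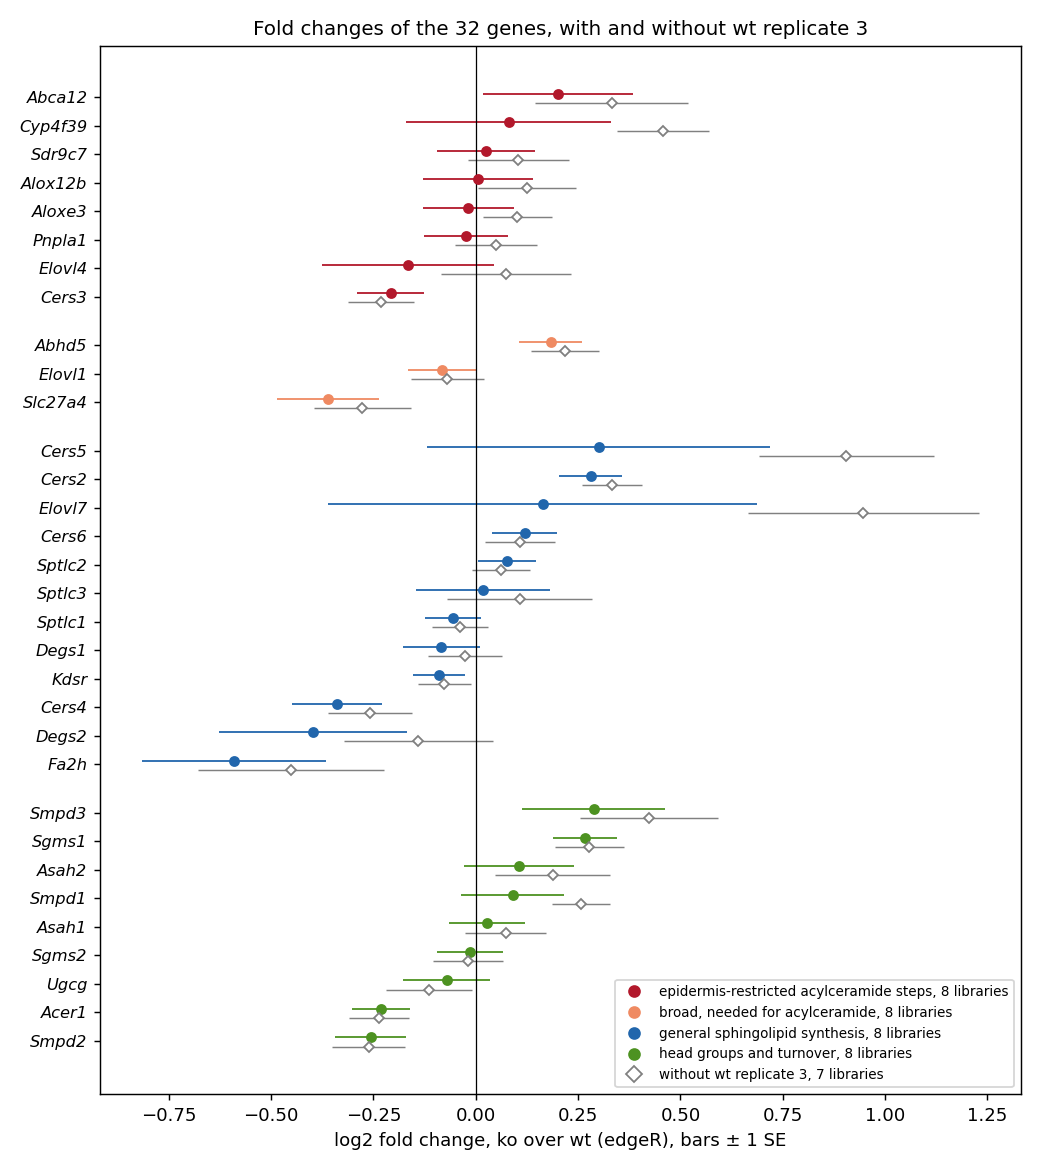
Log2 fold changes of the 32 genes, ko over wt, with bars of 1 SE from edgeR. Filled circles use all 8 libraries and are coloured by role, and open diamonds leave out wt replicate 3. The 8 restricted acylceramide steps lie between -0.21 and 0.20 with all libraries, and the diamonds of Cers5, Elovl7 and Cyp4f39 lie furthest to the right of their circles.

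A smaller group of genes had CPM values that did not overlap between the genotypes. There were 7 of 32 (21.9%), against 11.3% of all tested genes. Higher in every ko library than in every wt library were Cers2 and Sgms1, where 4.61% of all tested genes were. Lower in every ko library were Cers3, Cers4, Kdsr, Smpd2 and Acer1, where 6.69% of all tested genes were. None of these 7 passed the edgeR test with all 8 libraries. These CPM are scaled by library totals alone, while the test also uses a TMM scaling factor per library, from 0.9737 to 1.034. With those factors the groups of Cers4 and Kdsr overlap, and the shares over all tested genes were not counted on that scale. Promoter sequences are shown here for the 3 of the 7 that had 1 RefSeq entry with no deposited exon in its window. These promoters lie before 2 genes of the differentiated epidermis, Cers3 and Acer1, and before Kdsr, which is broadly expressed. Each is the 250 bases before the RefSeq start (GRCm38.p6), written 5′ to 3′ on the strand of the gene, with GC boxes (GGGCGG on either strand, hits may overlap each other) in capitals.

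Cers3 promoter, chr7:66743254-66743503, plus strand: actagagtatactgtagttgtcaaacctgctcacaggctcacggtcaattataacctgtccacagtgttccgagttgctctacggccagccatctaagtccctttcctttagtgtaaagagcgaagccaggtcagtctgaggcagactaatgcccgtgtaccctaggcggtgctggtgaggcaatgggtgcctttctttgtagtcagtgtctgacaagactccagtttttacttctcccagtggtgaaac
Acer1 promoter, chr17:56982127-56982376, minus strand: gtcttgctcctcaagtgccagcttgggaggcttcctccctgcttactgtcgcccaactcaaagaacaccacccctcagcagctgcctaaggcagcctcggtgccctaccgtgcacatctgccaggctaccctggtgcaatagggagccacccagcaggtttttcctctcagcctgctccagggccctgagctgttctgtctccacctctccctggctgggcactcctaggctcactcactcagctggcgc
Kdsr promoter, chr1:106759743-106759992, minus strand: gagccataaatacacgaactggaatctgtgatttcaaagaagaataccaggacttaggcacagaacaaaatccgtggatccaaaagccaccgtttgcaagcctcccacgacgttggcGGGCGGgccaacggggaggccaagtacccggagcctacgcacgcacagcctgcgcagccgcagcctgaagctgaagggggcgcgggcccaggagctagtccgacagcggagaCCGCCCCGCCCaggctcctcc

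The promoters of Cers3 and Acer1 held no GC box in this window, and that of Kdsr held 3. Over the whole set, a promoter entry was found for 28 genes, and 18 of them (64.3%) held a GC box in at least 1 entry, against 35.4% of the 27025 genes in the promoter table. By role this was 2 of 7 restricted acylceramide steps (28.6%), 3 of 3 broadly expressed genes that acylceramide synthesis needs, 8 of 11 genes of general synthesis (72.7%) and 5 of 7 genes of head groups and turnover (71.4%). The AP-1 motif TGANTCA, searched on both strands, was in the entries of 3 genes and in 6.75% of all 32851 entries. The TATA box TATAAA was in those of 1 gene, Sdr9c7, and in 12.4% of all entries. For these 2 motifs the shares count entries, while the gene counts take any entry of a gene, and the 28 genes had 38 entries. The counts and shares are therefore unlike measures. All these matches describe letters and were not tested.

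Among the restricted acylceramide steps, levels per length spanned a wide range and genotype values mostly overlapped. Elovl4, the elongase that makes the very long fatty acids of acylceramides, had the highest level of the 32 genes, at 253 ± 51.9 RPKM (CPM divided by exon length) in ko and 288 ± 84.3 RPKM in wt (SD, n = 4 each). Pnpla1, the transacylase that attaches linoleic acid, was the lowest of the 8, at 4.03 ± 0.343 RPKM in ko and 4.15 ± 0.443 RPKM in wt. The other 6 lay between 7.498 and 16.0 RPKM in ko and between 7.69 and 15.4 RPKM in wt. In ko the order from high to low was Cyp4f39, Sdr9c7, Alox12b, Abca12, Cers3 and Aloxe3, and each of the first 4 lay within the larger SD of the next of these 4. In wt Cers3 lay above Abca12, and every neighbour lay within the larger SD of the pair.

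**Figure D2:**
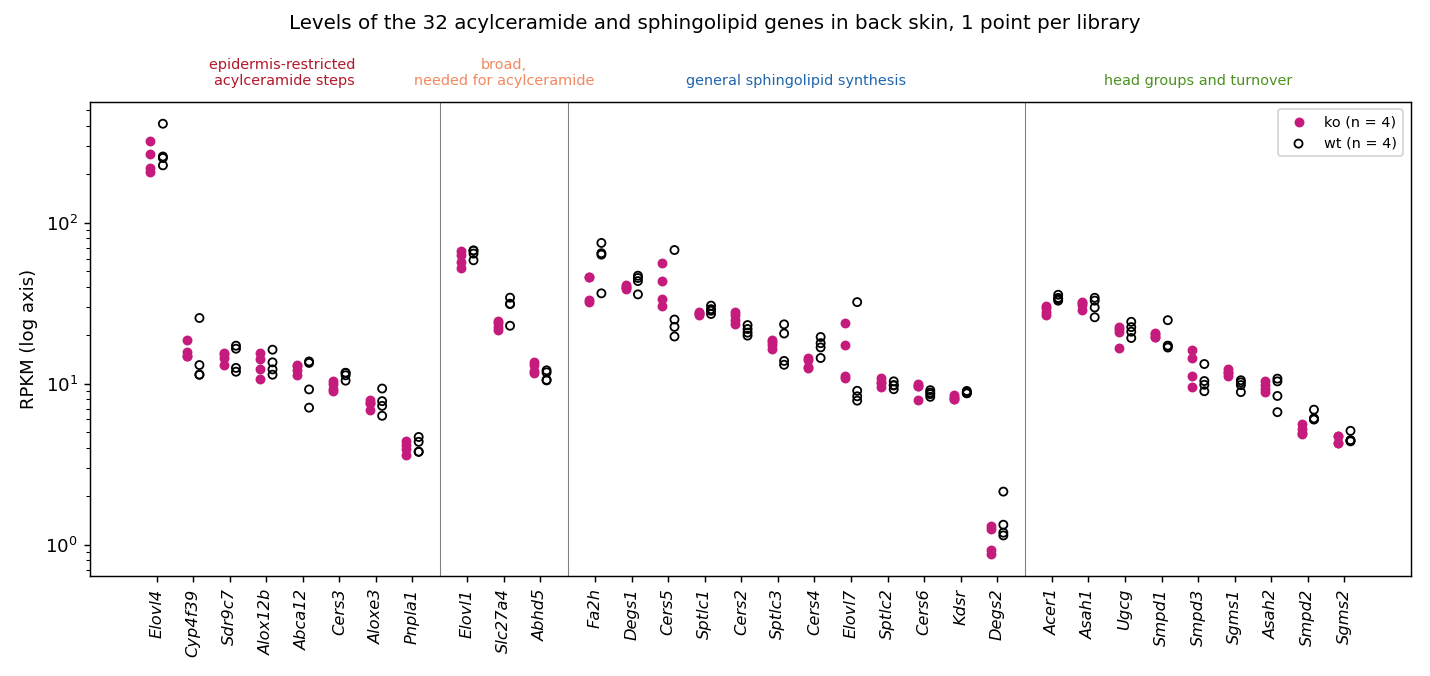
Levels of the 32 genes in RPKM on a log axis, 1 point per library, ko filled and wt open, ordered by mean level within each role. Elovl4 lies above all others and Degs2, at 1.09 ± 0.220 RPKM in ko and 1.45 ± 0.466 RPKM in wt, below all others.

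Cers3, the ceramide synthase that joins these very long fatty acids to the sphingoid base, was the 1 restricted gene whose groups did not overlap. Cers3 (ENSMUSG00000030510, chromosome 7, 66743504 to 66823691 on the plus strand, mm10) was at 29.2, 33.8, 32.3 and 30.3 CPM in ko, against 38.1, 38.1, 34.1 and 36.8 CPM in wt. The highest ko library lay just under the lowest wt library. Its log2 fold change was -0.21 ± 0.08 (SE, edgeR adjusted p = 0.202), and -0.23 ± 0.08 without wt replicate 3 (adjusted p = 0.106).

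Elovl4 (chromosome 9, 83778692 to 83806277 on the minus strand) was at 805, 663, 971 and 626 CPM in ko, against 765, 689, 1249 and 781 CPM in wt. The wt range was set by replicate 3, which was the highest of all 8, and ko replicates 1 and 3 lay above ko replicates 2 and 4. The log2 fold change was -0.17 ± 0.21 (SE, edgeR adjusted p = 0.698) and 0.07 ± 0.16 without wt replicate 3 (adjusted p = 0.813), so its sign depended on that library. Cyp4f39, the mouse omega-hydroxylase of very long fatty acids, was at 29.8, 25.2, 23.7 and 23.7 CPM in ko, against 18.2, 20.9, 41.0 and 18.2 CPM in wt. All ko libraries lay above 3 of the wt libraries and below wt replicate 3. On the log2 scale the difference was 0.08 ± 0.25 (SE, edgeR adjusted p = 0.887) with all libraries, and 0.46 ± 0.11 without wt replicate 3, where it passed the test (adjusted p = 0.0408).

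Abca12, the transporter that loads glucosylceramides into lamellar bodies, was at 192.5, 191, 167 and 180.5 CPM in ko, against 105, 204, 199.6 and 137 CPM in wt. The ko libraries were close together, and wt replicates 1 and 4 lay below all of them while wt replicates 2 and 3 lay above. Its log2 fold change was 0.20 ± 0.18 (SE, edgeR adjusted p = 0.575), and it was 0.042 without wt replicate 1 and 0.33 without wt replicate 3. The same pair of libraries was the lowest of the 8 for 8 of the 32 genes (Abca12, Cyp4f39, Sdr9c7, Abhd5, Sptlc3, Cers5, Smpd1 and Asah2). The share of all tested genes with this pair lowest was not counted, so the 8 of 32 cannot be read as particular to the set. The mean log2 deviation of the 12 suprabasal markers was -0.06 in wt replicate 1 and -0.09 in wt replicate 4, and it was lowest in ko replicate 3, at -0.15. What this pair of libraries shares was not tested.

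The enzymes that oxidise the linoleate of acylceramides differed little between genotypes. Alox12b and Aloxe3, lipoxygenases that act one after the other and lie beside each other on chromosome 11, had log2 fold changes of 0.0048 ± 0.13 and -0.02 ± 0.11 (SE). Sdr9c7, a dehydrogenase that acts after them, stood at 0.03 ± 0.12, and Pnpla1 at -0.02 ± 0.10. The edgeR adjusted p of these 4 genes lay between 0.922 and 0.989. The intervals of 2 SE around these 4 estimates ran from -0.26 to 0.27 at their widest, for Alox12b. Without wt replicate 3, 7 of the 8 restricted genes lay above 0, with a median of 0.10, and the median of all tested genes was then -0.01.

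Of the broadly expressed genes that acylceramide synthesis needs, Slc27a4 had the largest difference. It encodes a fatty acid transport protein with acyl-CoA synthetase activity. Slc27a4 (chromosome 2, 29802634 to 29817522) was at 108, 99.3, 105 and 94.6 CPM in ko, against 138, 101, 151 and 139 CPM in wt. Only wt replicate 2 lay within the range of ko. The log2 fold change was -0.36 ± 0.12 (SE, edgeR adjusted p = 0.159). Abhd5, the activator of Pnpla1 in keratinocytes and of the lipase Pnpla2 in fat, was at 77.9, 81.4, 69.8 and 71.2 CPM in ko, against 62.5, 72.2, 70.2 and 63.0 CPM in wt, with overlap, and 16.0% of its exon bases are shared with another gene model. The fitted log2 difference was 0.18 ± 0.08 (SE, edgeR adjusted p = 0.23). Elovl1, the elongase of saturated very long chains, had the highest level per length of the 3, at 60.05 ± 6.26 RPKM in ko and 64.35 ± 4.13 RPKM in wt (SD, n = 4 each). It stood at -0.08 ± 0.08 (SE, edgeR adjusted p = 0.616).

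In general synthesis, Cers2 was higher and Cers4 lower in every ko library in CPM, and neither passed the test with all 8 libraries. These enzymes differ in the length of the fatty acid they attach. Cers2, the synthase for very long chains in most tissues, was at 91.0, 98.5, 86.7 and 102 CPM in ko, against 80.5, 76.4, 85.1 and 73.2 CPM in wt. Every ko library lay above every wt library. Its log2 fold change was 0.28 ± 0.08 (SE, edgeR adjusted p = 0.0949). Without wt replicate 3 it was 0.33 ± 0.07 and passed (adjusted p = 0.0314), and without each library in turn it was between 0.25 and 0.33. Cers2 (ENSMUSG00000015714, chromosome 3, 95314791 to 95323599) starts 2.02 Mb from the end of Flg on the same chromosome, and 5.96% of its exon bases are shared with exons of Setdb1 and 6330562C20Rik. The strand setting of the counting is not given in the sources used here, so the assignment of reads in that stretch is uncertain.

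Cers4, which in mouse skin is known from hair follicle and sebaceous gland, was at 171, 153, 177.3 and 156 CPM in ko, against 206, 177.3, 239 and 219 CPM in wt. The groups did not overlap in CPM, by a margin of under 1 CPM between ko replicate 3 and wt replicate 2. With the TMM factors of the test, 0.9737 for ko replicate 3 and 1.034 for wt replicate 2, these libraries change order and the groups overlap. The log2 fold change was -0.34 ± 0.11 (SE, edgeR adjusted p = 0.141), and 8.97% of its exon bases are shared with 2 gene models that had no count. The ratio of Cers2 to Cers4 in RPKM was 1.77, 2.15, 1.63 and 2.18 in ko and 1.30, 1.44, 1.19 and 1.11 in wt. This ratio was chosen after the values of both genes were seen and has no test. Its groups must stand apart because each gene's groups do in CPM.

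Cers5 and Elovl7 were the most variable genes of the set, and wt replicate 3 decided their fold changes. Cers5, a synthase for long chains, was at 154, 107, 200.6 and 119 CPM in ko, against 80.0, 88.8, 240.0 and 69.7 CPM in wt. Apart from wt replicate 3, every wt library lay below every ko library. Its fold change on the log2 scale was 0.30 ± 0.42 (SE, edgeR adjusted p = 0.728) with all libraries and 0.91 ± 0.21 without wt replicate 3 (adjusted p = 0.043). Elovl7, an elongase of saturated and polyunsaturated chains, was at 95.2, 58.7, 130 and 60.7 CPM in ko, against 45.4, 42.7, 175 and 49.2 CPM in wt, with the same order of ko libraries. Its log2 fold change was 0.16 ± 0.52 (SE, edgeR adjusted p = 0.891), and 0.95 ± 0.28 without wt replicate 3 (adjusted p = 0.0829). Leaving out wt replicate 3 called 3 of the 32 genes, Cyp4f39, Cers2 and Cers5, beside 6.82% of all tested genes.

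Libraries that were high for Cers5 and Elovl7 were also high for sebocyte markers. The mean of the 9 sebocyte markers, as log2 deviation from all 8 libraries, was 0.31, -0.13, 0.39 and -0.19 in ko replicates 1 to 4, against -0.56, -0.21, 0.84 and -0.43 in wt replicates 1 to 4. Cers5 deviated by 0.34, -0.18, 0.72 and -0.03 in ko and by -0.60, -0.45, 0.98 and -0.80 in wt. In both, wt replicate 3 was highest, followed by ko replicates 3 and 1. Of the 9 sebocyte markers 0 were called with edgeR, with 2 at an unadjusted p under 0.05, 1 of them higher and 1 lower. The part of sebaceous gland content in the level of Cers5 and Elovl7 was not tested. Wild-type replicate 3 was the highest of all 8 libraries for 13 of the 32 genes (40.6%), among them 5 of the 8 restricted acylceramide steps and 6 of the 12 genes of general synthesis, and for 15.0% of all tested genes.

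**Figure D3:**
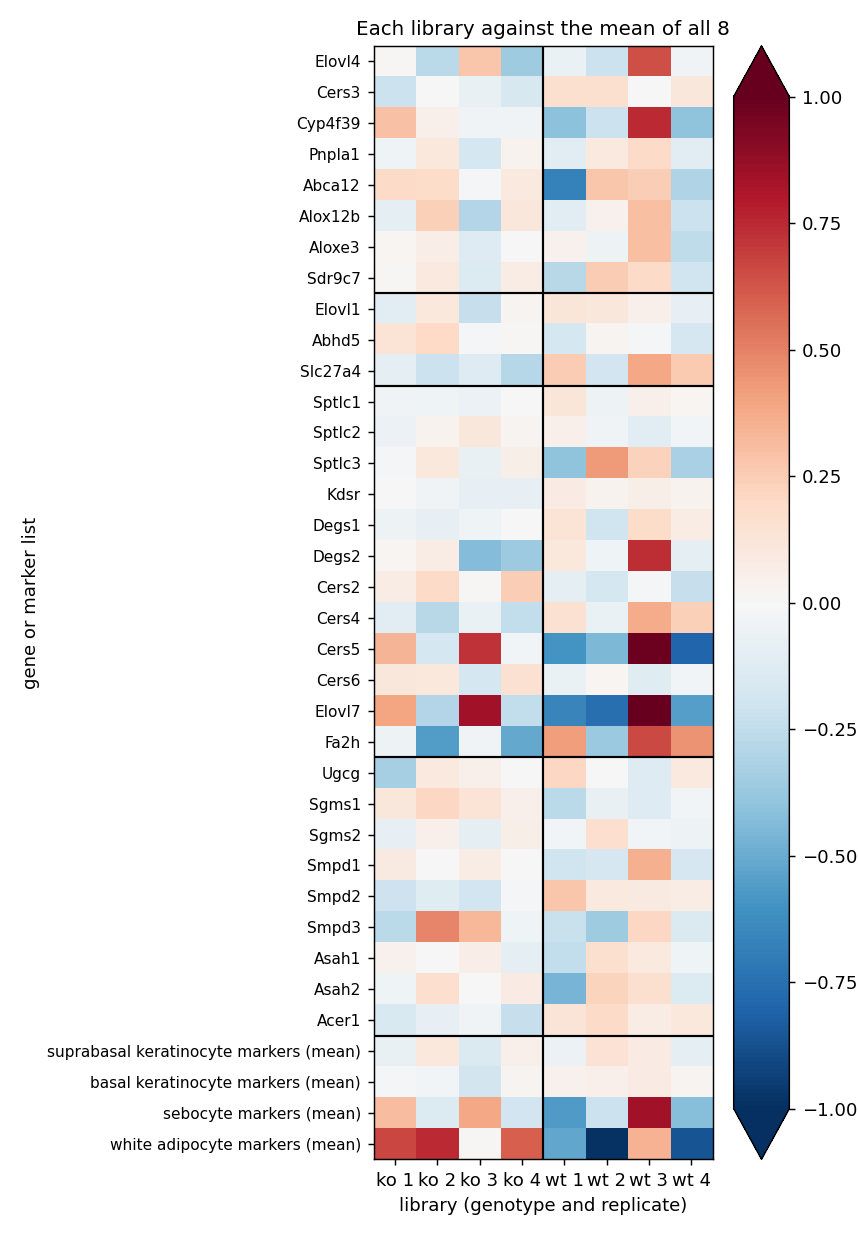
Level of each gene in each library as log2(CPM + 0.5) minus the mean of the 8 libraries, ko at left and wt at right, with the means of 4 marker lists at the bottom. Colours stop at 1 in either direction. Wild-type replicate 3 is high for Elovl4, Cyp4f39, Cers5, Elovl7 and the sebocyte markers.

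Fa2h hydroxylates fatty acids at the alpha position in epidermis, sebaceous gland and myelin. It had the largest difference of the set with all 8 libraries. Elovl7, Cers5 and, by a small margin, Cyp4f39 differed more without wt replicate 3. Fa2h was at 138, 96.7, 139 and 99.7 CPM in ko, against 191, 110, 226 and 195 CPM in wt. The wt replicates 1, 3 and 4 lay above all ko libraries, and wt replicate 2 lay inside their range. The log2 fold change was -0.59 ± 0.22 (SE, edgeR adjusted p = 0.196). Without wt replicate 3, the highest library for Fa2h, Slc27a4 and Cers4, these genes stood at -0.45 ± 0.23, -0.28 ± 0.12 and -0.26 ± 0.10 (adjusted p = 0.254, 0.181 and 0.149). Without wt replicate 2, Fa2h passed at -0.77 ± 0.15 (adjusted p = 0.0327). Slc27a4 at -0.48 ± 0.08 (adjusted p = 0.018) and Cers4 at -0.42 ± 0.09 (adjusted p = 0.048) passed as well, so that leaving out this library called 3 of 32 genes beside 2.6% of all tested genes.

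The first steps of sphingolipid synthesis were nearly level between genotypes. Sptlc1, the constant subunit of serine palmitoyltransferase, stood at -0.05 ± 0.07 and its partner Sptlc2 at 0.08 ± 0.07 on the log2 scale (SE). Sptlc3, the alternative partner, stood at 0.02 ± 0.16. Kdsr, which reduces the first product, was at 69.0, 67.5, 65.3 and 65.4 CPM in ko, against 73.5, 71.2, 72.0 and 71.1 CPM in wt. These groups did not overlap in CPM, yet the difference was small, at -0.09 ± 0.06 (SE, edgeR adjusted p = 0.469). With the TMM factors of the test, 0.987 for ko replicate 1 and 1.034 for wt replicate 2, these libraries change order and the groups overlap. Degs1, the desaturase that forms ceramide, stood at -0.08 ± 0.09, and Degs2, which hydroxylates the sphingoid base, at -0.40 ± 0.23. Wild-type replicate 3 was the highest library for Degs2, at 7.64 CPM against 4.08 to 4.76 CPM in the other wt libraries, and without it Degs2 stood at -0.14 ± 0.18. Cers6 stood at 0.12 ± 0.08. None of these 7 genes had an edgeR adjusted p under 0.366.

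Among the genes of head groups and turnover, Sgms1, Smpd2 and Acer1 did not overlap between genotypes. Sgms1, the sphingomyelin synthase of the Golgi, was at 119, 127.5, 121 and 114 CPM in ko, against 91.4, 105, 101 and 108 CPM in wt. On the log2 scale the difference was 0.27 ± 0.08 (SE, edgeR adjusted p = 0.107), higher in all ko libraries. Smpd2, a neutral sphingomyelinase that acts in the reverse direction, was at 21.9, 23.3, 22.2 and 25.15 CPM in ko, against 30.85, 27.2, 27.0 and 26.8 CPM in wt. It was lower in all ko libraries, with a log2 fold change of -0.26 ± 0.09 (SE, edgeR adjusted p = 0.154). Of its exon bases, 20.3% are shared with exons of Mical1, with the same uncertainty of assignment as above.

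Acer1, the alkaline ceramidase of differentiated keratinocytes, was at 68.2, 71.6, 74.0 and 64.6 CPM in ko, against 83.0, 86.8, 79.8 and 81.6 CPM in wt. Both groups were narrow and separate. Acer1 (ENSMUSG00000045019, chromosome 17, 56953490 to 56982126 on the minus strand) had a log2 fold change of -0.23 ± 0.07 (SE, edgeR adjusted p = 0.123), which was between -0.27 and -0.19 without each library in turn. It was at 28.65 ± 1.68 RPKM in ko and 34.1 ± 1.23 RPKM in wt (SD, n = 4 each), and with Asah1 it had the highest levels per length of the 9 genes. Of the keratinocyte marker lists, the 12 suprabasal genes had a median log2 fold change of -0.09, with 0 called by edgeR, 1 at an unadjusted p under 0.05 and none without overlap. The summed level of 8 basal keratinocyte markers was 7930 to 8998 CPM in ko and 9175 to 9949 CPM in wt, without overlap. In CPM 2 of the 8, Krt5 and Krt15, were lower in every ko library, beside 6.69% of all tested genes. With the TMM factors of the test, 0.987 for ko replicate 1 and 1.034 for wt replicate 2, the sums and the values of Krt15 overlap. By fitted log2 fold change 6 of the 8 lay below 0 and 2 above. With the mean of the suprabasal list as a covariate, Acer1 stood at -0.24 ± 0.07 (SE, edgeR adjusted p = 0.1) and Cers3 at -0.21 ± 0.08 (adjusted p = 0.179). With the mean of the adipocyte list in its place, Acer1 stood at -0.145 ± 0.10 (adjusted p = 0.644) and Cers3 at -0.11 ± 0.12 (adjusted p = 0.8). The part of basal keratinocyte content was not tested.

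**Figure D4:**
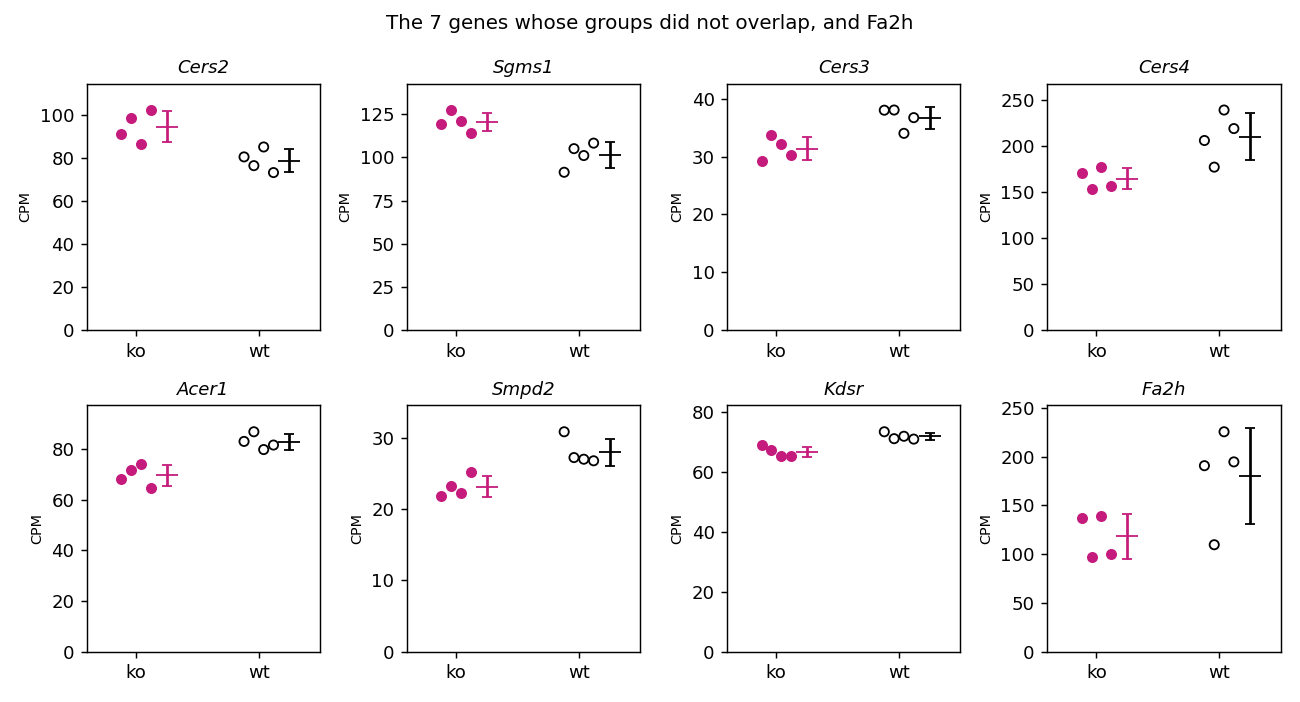
CPM of the 7 genes without overlap and of Fa2h, 1 point per library, ko left and wt right, with the mean and SD of 4 libraries beside the points and axes from 0. The ko points of Cers2 and Sgms1 lie above all wt points, those of Cers3, Cers4, Acer1, Smpd2 and Kdsr below, and 1 wt point of Fa2h, at 110 CPM, falls among the ko points.

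The remaining genes of turnover overlapped between genotypes. Ugcg, which makes glucosylceramide, stood at -0.07 ± 0.11 and Sgms2, the sphingomyelin synthase of the plasma membrane, at -0.01 ± 0.08 on the log2 scale (SE). The acid sphingomyelinase gene Smpd1 stood at 0.09 ± 0.13, and at 0.26 ± 0.07 without wt replicate 3 (edgeR adjusted p = 0.0566). Smpd3, a further neutral sphingomyelinase, varied widely within ko, at 50.0, 84.45, 76.0 and 58.6 CPM, against 51.6, 47.0, 69.4 and 54.4 CPM in wt. Its log2 fold change was 0.29 ± 0.17 (SE, edgeR adjusted p = 0.391). The acid ceramidase gene Asah1 stood at 0.03 ± 0.09 and the neutral ceramidase gene Asah2 at 0.11 ± 0.13.

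Further genes of the same pathways were examined in 3 lists. Of 21 other sphingolipid genes tested, 0 were called by edgeR, with 1 higher and 2 lower at an unadjusted p under 0.05. Over all tested genes 19.5% lay under that p in either direction. Sphk1, the kinase that makes sphingosine 1-phosphate, was at 34.4, 41.0, 33.0 and 38.6 CPM in ko, against 58.5, 45.1, 46.0 and 47.2 CPM in wt. These groups did not overlap (log2 fold change -0.41 ± 0.10, SE, edgeR adjusted p = 0.0812). Acer2, a ceramidase of the Golgi, was at 60.9, 41.2, 69.8 and 44.2 CPM in ko, against 40.0, 22.0, 38.4 and 33.6 CPM in wt. It was higher in all ko libraries, the lowest of them by a little over 1 CPM (0.71 ± 0.22, adjusted p = 0.137).

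Of 10 genes of the fatty acid elongation cycle tested, 0 were called by edgeR and 3 were lower at an unadjusted p under 0.05. The share of all tested genes under that p was 19.5% in either direction. Elovl3, an elongase of sebaceous gland and hair follicle, was at 14.5, 8.12, 16.3 and 7.82 CPM in ko, against 35.1, 13.15, 49.0 and 40.7 CPM in wt. Elovl3 is also 1 of the 9 sebocyte markers, and wt replicate 2 was the wt library that lay among the ko values, as it was for Fa2h. The fitted log2 difference was -1.54 ± 0.41 (SE, edgeR adjusted p = 0.101). Hacd1, a dehydratase of the cycle, was at 7.78, 9.04, 8.10 and 7.48 CPM in ko, against 12.2, 9.14, 13.4 and 17.4 CPM in wt (-0.68 ± 0.18, adjusted p = 0.0947). Of 10 other lamellar body and lipid envelope genes, 0 were called and 1 was lower at an unadjusted p under 0.05, beside the same share of all tested genes. The lower gene was the cholesterol sulfotransferase gene Sult2b1, at 13.5, 15.15, 13.45 and 17.25 CPM in ko, against 18.2, 18.4, 19.4 and 18.0 CPM in wt (-0.30 ± 0.10, edgeR adjusted p = 0.15). The acid lipase gene Lipm stood at -0.13 ± 0.08 (adjusted p = 0.407).

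Fat markers were mostly higher in the ko libraries. Of 12 white adipocyte markers, 0 were called by edgeR and 9 were higher at an unadjusted p under 0.05, beside 19.5% of all tested genes in either direction. The median of the 12 was 0.80 on the log2 scale, and 1.18 without wt replicate 3. The other marker lists had medians of -0.07 for 8 basal keratinocyte, -0.03 for 9 sebocyte, -0.24 for 7 Schwann cell and myelin, -0.04 for 6 fibroblast and 0.08 for 5 skeletal muscle genes, with 0 called in each. Of 5 hair shaft genes found, 2 passed the filter on low counts, with a median of 2.45 and 0 called, and Krt71 was at 23.0 CPM in ko replicate 4 and under 1 CPM in all other libraries. With the adipocyte mean as a covariate, the median of the restricted acylceramide steps was -0.27, that of general synthesis -0.18 and that of all tested genes -0.0020, with 0 genes called. In that fit 23 of the 32 genes had a log2 fold change whose size, leaving the sign aside, differed over 1.5 times from that without the covariate. Cers5, at -0.25, and Ugcg, at 0.077, are not among these 23 but turned sign. Among the 23, Cers2 stood at 0.12 ± 0.10 (SE, edgeR adjusted p = 0.708), Abhd5 at 0.10 ± 0.12, Abca12 at 0.026 ± 0.29, Slc27a4 at -0.57 ± 0.17 and Degs2 at -1.07 ± 0.22. The mean log2 deviation of the adipocyte list was 0.67, 0.75, 0.01 and 0.60 in ko, against -0.52, -0.99, 0.35 and -0.86 in wt. The covariate thus largely followed genotype, and this fit cannot tell fat content and genotype apart. The part of fat content in the values of the set was not tested.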

How the data were processed

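RNA of total shaved back skin was sequenced in 4 ko and 4 wt libraries. The authors deposited whole-number read counts per gene, aligned to mm10 with GSNAP and counted with featureCounts 1.6.2, per the submitters' processing notes. Whether counting used strand, and what was done with multi-mapping reads, is not given in the sources used here. The series design text and the sample labels name different library protocols, a SMART kit and a directional kit, which could not be settled. From 49763 rows, 92 spike-in rows were left out. Genes were filtered with edgeR's filterByExpr, scaled by TMM and tested with edgeR 4.0.16 (quasi-likelihood, R 4.3.3), with Benjamini-Hochberg adjustment over 19099 genes. DESeq2 1.42.0, limma 3.58.1 (voom with quality weights), other scalings and filters, marker covariates and leaving out each library were alternatives. The fit was tested on simulated data. CPM are counts scaled to equal totals over genes, without the TMM factors, and RPKM divide them by exon length. Errors are SD over libraries or SE of the fit. The library totals ran from 18483242 to 38545957 counts.

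The members and lists were chosen with earlier results of these data known. The genes named were Flg, every called member, the 3 members with the smallest unadjusted p and the one with the highest RPKM in each role, and the 2 genes with the smallest p in each other pathway list. Members with groups that did not overlap, members called without a library and Smpd3 were given in full after their values were seen. Of 141 list entries, 2 matched no gene name.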

Additional observations from a re-analysis of the deposited data

Results flagged for a closer look

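In 10 of 78 groups of 4 libraries, 1 library stood apart by Dixon's ratio, the gap to its nearest neighbour over the whole range, above its critical value. Chance gives about 1 in 20 such groups where groups are independent and normally distributed. The 78 groups come from the same 8 libraries, so they are not independent and the count cannot be set against that rate. Wild-type replicate 3 was the high library in 5 of them: Elovl4 (ratio 0.834, 1249 CPM against 689 to 781.5 CPM in the other wt libraries), Cyp4f39 (0.881, 41.0 against 18.2 to 20.9 CPM), Cers5 (0.888, 240.0 against 69.7 to 88.8 CPM), Elovl7 (0.951, 175 against 42.7 to 49.2 CPM) and Smpd1 (0.943, 82.9 against 56.0 to 57.6 CPM). Wild-type replicate 1 was high for Smpd2 (0.89, 30.85 against 26.8 to 27.2 CPM) and Sphk1 (0.844, 58.5 against 45.1 to 47.2 CPM). Wild-type replicate 2 was high for Sgms2 (0.897, 31.8 against 27.3 to 27.8 CPM) and Lipm (0.888, 183 against 145 to 149 CPM). Among ko libraries, replicate 3 was low for Cers6 (0.848, 70.6 against 86.1 to 88.9 CPM).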

How the results depend on the processing

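No paired analysis was possible because the labels give no replicate numbers, and those used here only follow the order of the samples. Of all tested genes, 270 were called by edgeR, against 1177 by DESeq2, 2556 by limma voom, 502 with no low count filter, 497 with the suprabasal covariate, 0 with the adipocyte covariate (where Flg missed the threshold, adjusted p = 0.0796) and 11 to 1325 without each library in turn, lowest without ko replicate 2 and highest without wt replicate 3. The members called numbered 0, against 2 by DESeq2, 5 by voom and 0 to 3 without each library (3 without wt replicate 2 and 3 without wt replicate 3). In the other pathway lists 0 were called, against 4 by DESeq2, 6 by voom, 1 with no filter and 0 to 3 without each library. With the adipocyte covariate the median was -0.13 over all members, -0.27 over the restricted steps and -0.18 over general synthesis, and the sign turned for Cyp4f39 (-0.57), Alox12b (-0.35), Sdr9c7 (-0.11), Sptlc3 (-0.073), Cers5 (-0.25), Elovl7 (-0.46), Smpd1 (-0.21), Ugcg (0.077) and Sgms2 (0.026). It turned with voom for Pnpla1 (0.062), Aloxe3 (0.074) and Sgms2 (0.023), and with library totals for Alox12b (-0.012) and Sptlc3 (-0.0037). Without each library in turn it turned for 12 members, whose ranges were -0.0696 to 0.125 (Alox12b), -0.0918 to 0.102 (Aloxe3), -0.0481 to 0.0735 (Asah1), -0.0191 to 0.188 (Asah2), -0.0430 to 0.457 (Cyp4f39), -0.31 to 0.0729 (Elovl4), -0.114 to 0.947 (Elovl7), -0.0694 to 0.0501 (Pnpla1), -0.0624 to 0.104 (Sdr9c7), -0.0337 to 0.0260 (Sgms2), -0.104 to 0.165 (Sptlc3) and -0.115 to 0.0157 (Ugcg). Ranges that kept their sign but moved by over 1.5 times were 0.042 to 0.33 (Abca12), -0.49 to -0.14 (Degs2), 0.092 to 0.91 (Cers5), 0.032 to 0.26 (Smpd1), 0.17 to 0.42 (Smpd3), 0.090 to 0.18 (Cers6), -0.13 to -0.033 (Elovl1), -0.093 to -0.028 (Sptlc1), 0.038 to 0.10 (Sptlc2) and -0.17 to -0.026 (Degs1). The cause was not tested. The RLE factors, the CPM filter and the suprabasal covariate turned no sign and moved no call of a member.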
